A study of Mus musculus with 9 samples.

Results

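The surfactant and alveolar type 2 genes described here are 10 genes chosen by name from the 34638 genes of a lung RNA-seq table, namely *Sftpa1*, *Sftpb*, *Sftpc*, *Sftpd*, *Abca3*, *Lpcat1*, *Lamp3*, *Napsa*, *Slc34a2* and *Etv5*. All 10 passed the filter on low values, a mean of at least 0.5 FPKM over all mice. Whole-lung RNA was sequenced from 9 wild-type C57BL/6 mice, 3 in each of 3 groups. CON mice received PBS, and IL-33 mice received 0.5 µg of recombinant mouse IL-33 into the trachea on days 0 to 3. Both sets were female, 6 to 8 weeks old, and sampled on day 4. IL-33+LM8 mice received the same challenge after an intraperitoneal injection of LM8, a MyD88 inhibitor, at 10 mg/kg. The age, sex and sampling day of that group are not given in the sources used here, and no vehicle injection is described for CON or IL-33 mice, so the effect of the injection cannot be told apart from that of LM8.

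Pulmonary surfactant is a film of phospholipid and protein that lowers surface tension in the alveoli. Alveolar type 2 (AT2) cells assemble it in lamellar bodies and secrete it, and they also act as progenitors of the thin alveolar type 1 (AT1) cells that carry gas exchange. The small hydrophobic proteins SP-B and SP-C spread and stabilise the lipid film, whereas SP-A and SP-D are collectins, soluble lectins that bind microbes and allergens. IL-33 is an epithelial alarmin, and its receptor signals through the adaptor MyD88.

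The genes split in IL-33 lungs. *Sftpc* and *Sftpb* fell, *Sftpd* rose, the lipid-handling genes *Abca3* and *Lpcat1* and the transcription factor *Etv5* fell, and 4 genes did not pass the test. In IL-33+LM8 lungs the mean of *Sftpc* was 0.834 times that of CON, *Abca3*, *Lpcat1* and *Etv5* stayed near their IL-33 levels, and *Sftpa1* was above both other groups. All values in single lungs are FPKM, the number of reads corrected for the length of the gene and the depth of the library. Fold changes come from edgeR's quasi-likelihood test on the counts of the 6 mice compared, a gene is called where p, adjusted over all genes tested by the Benjamini-Hochberg method, is under 0.05, and fold changes are given as log2 with their standard error (SE).

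Against CON, IL-33 lungs had 1 of the 10 genes higher and 5 lower, where 27.4% of the 16831 genes tested were higher and 27.2% lower. IL-33+LM8 lungs compared with IL-33 lungs had 4 higher and 0 lower, against 12.6% and 13.9% of all genes. That count of 0 by edgeR was also 0 at an unadjusted p under 0.05, and DESeq2 called 0 lower. IL-33+LM8 lungs compared with CON had 2 higher and 4 lower, against 16.3% and 13.4% of 16829 genes. Scaling to a panel of general epithelial genes moved the share of higher genes among all called in this last comparison from 54.9% to 69.0%. With a minimum absolute log2 fold change of 1 added, only *Sftpc* in IL-33 against CON was called, where that rule called 17% of all genes in IL-33 against CON, 5.39% in IL-33+LM8 against IL-33 and 7.33% in IL-33+LM8 against CON. The FPKM of the groups did not overlap for 8, 6 and 8 of the 10 genes in the same order, against 63.4%, 43.2% and 47.3% of all genes. For each of these non-overlapping genes the two-sided exact permutation p was 0.1, the smallest that 3 mice against 3 allow.

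**Figure D1:**
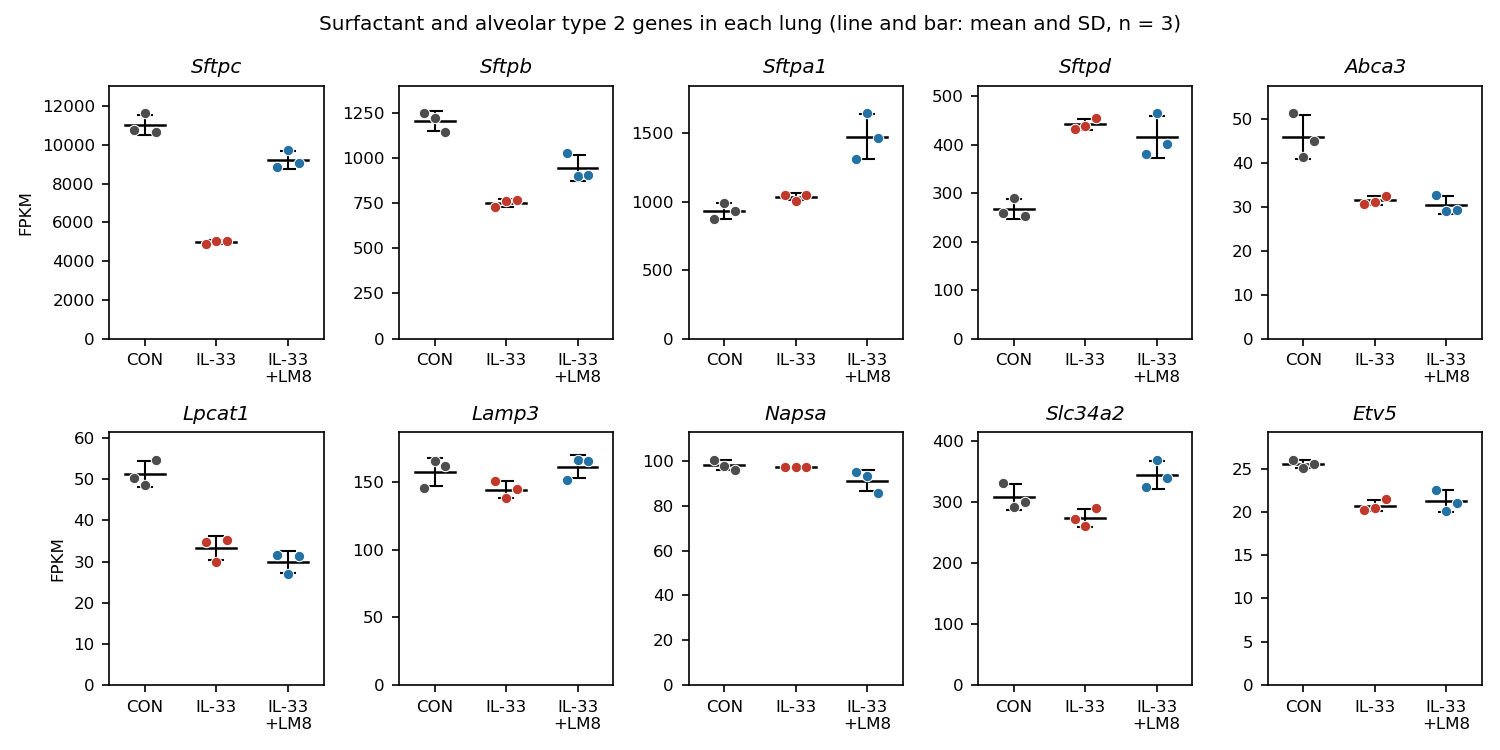
FPKM (vertical axis, from 0) of the 10 genes in each of 9 lungs, by group (horizontal axis); points are mice, and lines and bars are the mean and SD of 3 mice. *Sftpc* and *Sftpb* are lowest in IL-33 lungs, *Sftpa1* is highest in IL-33+LM8 lungs, and *Abca3*, *Lpcat1* and *Etv5* are lower in both challenged groups than in CON.

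Upstream sequence is shown for 4 members, chosen as 1 pair with unlike courses and 1 pair with like courses. *Sftpa1* and *Sftpb* encode a collectin and a hydrophobic protein whose RNAs moved in opposite directions in IL-33+LM8 against CON, and *Abca3* and *Lpcat1* followed similar courses over the 9 mice. Each run is the 250 bases before the transcript start on the gene's strand, from RefSeq on GRCm38.p6, in lower case with matches to the motifs searched in capitals. The positions are chr14:41131538-41131787 (+) for *Sftpa1*, chr6:72304360-72304609 (+) for *Sftpb*, chr17:24351773-24352022 (+) for *Abca3* and chr13:73466981-73467230 (+) for *Lpcat1*.
Sftpa1: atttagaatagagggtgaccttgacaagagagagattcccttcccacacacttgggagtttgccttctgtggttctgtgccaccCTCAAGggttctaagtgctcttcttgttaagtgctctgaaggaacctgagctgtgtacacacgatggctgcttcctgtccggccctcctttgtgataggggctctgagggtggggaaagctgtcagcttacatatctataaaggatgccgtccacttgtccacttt
Sftpb: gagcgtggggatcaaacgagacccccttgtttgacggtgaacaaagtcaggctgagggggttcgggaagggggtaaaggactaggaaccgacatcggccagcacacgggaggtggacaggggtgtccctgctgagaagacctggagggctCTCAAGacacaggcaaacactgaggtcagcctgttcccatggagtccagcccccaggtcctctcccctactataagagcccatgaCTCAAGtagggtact
Abca3: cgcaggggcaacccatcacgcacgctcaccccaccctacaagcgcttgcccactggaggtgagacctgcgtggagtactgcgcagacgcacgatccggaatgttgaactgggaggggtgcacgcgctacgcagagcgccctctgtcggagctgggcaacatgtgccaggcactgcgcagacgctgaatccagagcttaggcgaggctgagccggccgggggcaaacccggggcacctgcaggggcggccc
Lpcat1: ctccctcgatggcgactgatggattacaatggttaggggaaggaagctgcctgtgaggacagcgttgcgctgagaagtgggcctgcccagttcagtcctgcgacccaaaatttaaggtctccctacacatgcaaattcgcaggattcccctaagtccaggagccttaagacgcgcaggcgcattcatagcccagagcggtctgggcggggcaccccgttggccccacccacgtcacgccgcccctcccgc

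Motifs of 5 factors were searched on both strands in the 300 bases from 250 before to 50 after each start, and no matches to different motifs overlapped in the members. NKX2-1, the lung lineage factor, was searched as CTCAAG, which 15.9% of the 32851 promoters hold. *Sftpa1* held 1 match, beginning 166 bases before the start, and *Sftpb* held 2, beginning 100 and 15 bases before it, all on the gene's strand. The other motifs were FOXA as TNTTTAC (12.4% of promoters), C/EBP as TTGCNNAA (10.8%), ETS as CCGGAAG (8.86%) and STAT6 as TTCNNNNGAA (6.95%). A FOXA match lay in *Lamp3* and in the first of 2 *Etv5* promoters, and a C/EBP match, read on both strands at the same place, lay in *Slc34a2*. The *Abca3* and *Lpcat1* windows held none of the 5 motifs as spelled here. Promoters were found for 7 of the 10 members, and *Sftpc*, *Sftpd* and *Napsa* are named only.

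*Sftpc*, which encodes SP-C and is the most specific transcript of AT2 cells, was the most abundant of the 10 genes in every lung. Its FPKM was 10767, 11640 and 10682 in the CON lungs, 4879, 5053 and 5045 in the IL-33 lungs and 8830, 9740 and 9039 in the IL-33+LM8 lungs. The 3 groups did not overlap, and the IL-33 lungs were the lowest by a wide margin. The mean of IL-33 lungs was 0.453 times that of CON, a log2 fold change of -1.15 (SE 0.07, edgeR adjusted p = 1.86e-05). In bulk lung RNA, fewer AT2 cells and less RNA per AT2 cell cannot be told apart. *Sftpc* took 1.15% to 1.26% of all counts in CON lungs, 0.522% to 0.547% in IL-33 lungs and 0.954% to 1.05% in IL-33+LM8 lungs. Between IL-33+LM8 and IL-33 lungs it was 1.84-fold higher on mean FPKM, with a log2 fold change of 0.88 (SE 0.08, edgeR adjusted p = 0.000412). Against CON, the IL-33+LM8 lungs gave -0.25 (SE 0.11), which did not pass (edgeR adjusted p = 0.131). A fit with the replicate number as a block, a pairing that the labels do not give, gave -0.25 with an adjusted p of 0.0455. DESeq2, which made more false calls than edgeR on counts simulated for IL-33 against CON, gave -0.25 with an adjusted p of 0.00334. The change also passed with all 9 mice in 1 fit (-0.25, adjusted p = 0.0441) and with a minimum mean of 5 FPKM (-0.28, adjusted p = 0.0139). These are the only 4 of 17 alternatives that called it, and the adjusted p reached 0.481 among the others.

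*Sftpb*, which encodes SP-B, required for lamellar body formation and for breathing at birth, followed the direction of *Sftpc* with a smaller change. Its FPKM was 1251, 1221 and 1147 in CON, 729, 761 and 770 in IL-33 and 1031, 903 and 910 in IL-33+LM8 lungs. No group overlapped another, and the IL-33+LM8 lungs lay between the other two groups. The log2 fold change was -0.68 (SE 0.07, edgeR adjusted p = 0.000126) in IL-33 against CON, 0.33 (SE 0.08, edgeR adjusted p = 0.0163) in IL-33+LM8 against IL-33 and -0.33 (SE 0.09, edgeR adjusted p = 0.0324) in IL-33+LM8 against CON. The last 2 calls were lost when single mice were left out. For IL-33+LM8 lungs compared with IL-33 lungs, the adjusted p was 0.0728, 0.0623 or 0.0526 without IL-33 replicate 1, 2 or 3. In IL-33+LM8 against CON it was 0.0879, 0.0691 or 0.0701 without CON replicate 1, 2 or 3, and 0.0765 or 0.139 without IL-33+LM8 replicate 2 or 3.

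The ratio of the 2 hydrophobic transcripts also shifted. *Sftpc* FPKM was 8.60 to 9.53 times *Sftpb* FPKM in CON lungs, 6.55 to 6.69 times in IL-33 lungs and 8.56 to 10.8 times in IL-33+LM8 lungs. The IL-33 range lay below both others, and the CON and IL-33+LM8 ranges overlapped.

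The collectins did not follow the hydrophobic proteins. *Sftpd*, which encodes SP-D, a collectin that binds microbes and regulates the surfactant pool, had an FPKM of 258, 290 and 252 in CON, 433, 438 and 455 in IL-33 and 381, 465 and 401 in IL-33+LM8 lungs. Every challenged lung, with or without LM8, was above every CON lung, and the 2 challenged groups overlapped. On the log2 scale the difference was 0.73 (SE 0.07, edgeR adjusted p = 0.000112) in IL-33 against CON and 0.65 (SE 0.10, edgeR adjusted p = 0.00372) in IL-33+LM8 against CON. Between IL-33+LM8 and IL-33 lungs it was -0.09 (SE 0.09, edgeR adjusted p = 0.533).

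*Sftpa1* encodes SP-A, the most abundant surfactant protein and an opsonin. Its FPKM was 874, 989 and 929 in CON, 1052, 1009 and 1052 in IL-33 and 1314, 1649 and 1467 in IL-33+LM8 lungs. The lowest IL-33 lung was just above the highest CON lung, and all 3 IL-33+LM8 lungs were above every other lung. IL-33 against CON gave a log2 fold change of 0.16 (SE 0.07), which did not pass (edgeR adjusted p = 0.0870), although it did with DESeq2 (0.16, adjusted p = 0.0116) and without CON replicate 2 (0.20, adjusted p = 0.0255). The IL-33+LM8 lungs were higher than IL-33 lungs by 0.51 (SE 0.10, edgeR adjusted p = 0.00875) and higher than CON lungs by 0.68 (SE 0.11, edgeR adjusted p = 0.00478). Both changes had the same sign without the mouse with most counts in each group, at 0.53 and 0.68, with adjusted p of 0.0793 and 0.0610 on 2 mice a group.

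*Sftpa1* and *Sftpd* lie on chromosome 14 in the table's own coordinates, 35761 bases apart with the mannose-binding lectin gene *Mbl1* between them. FPKM of *Sftpa1* was 3.39 to 3.68 times that of *Sftpd* in CON lungs, 2.31 to 2.43 times in IL-33 lungs and 3.45 to 3.65 times in IL-33+LM8 lungs, so the IL-33 range lay apart from both others. *Sftpc* was 11.5 to 12.3 times *Sftpa1* in CON lungs, 4.64 to 5.01 times in IL-33 lungs and 5.91 to 6.72 times in IL-33+LM8 lungs. The 3 ranges of this last ratio were separate.

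**Figure D2:**
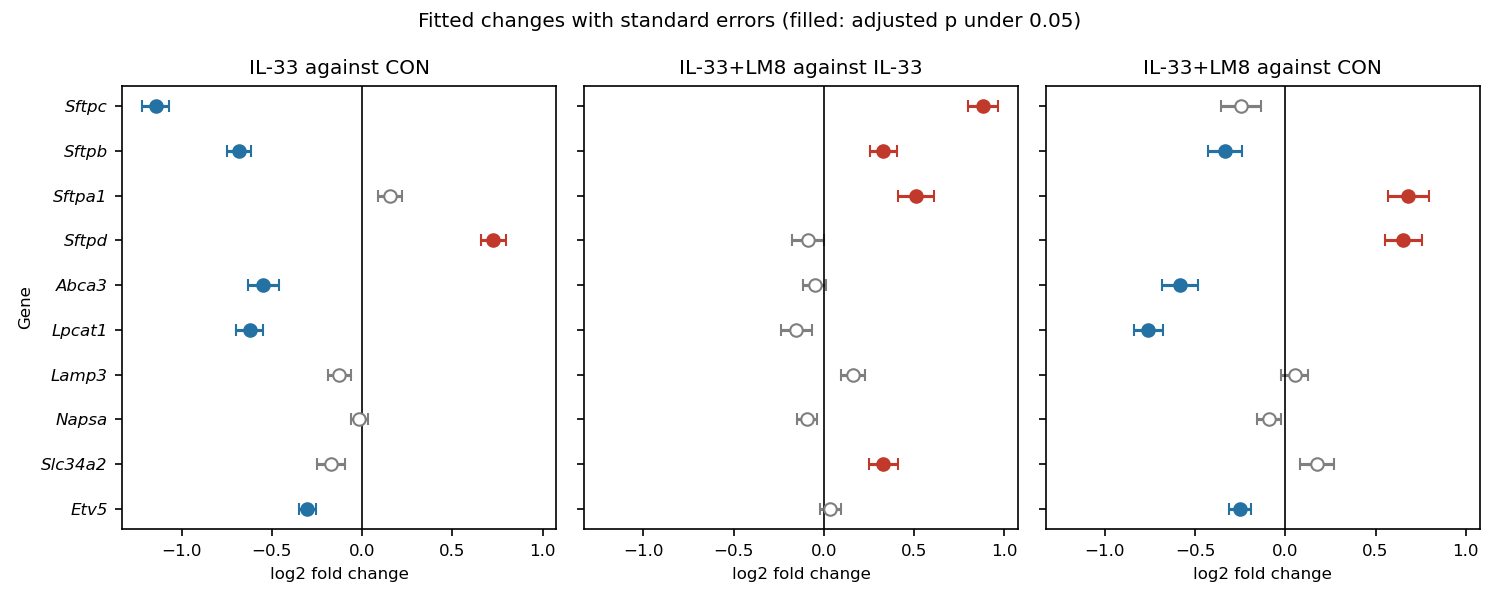
Log2 fold changes (horizontal axis) of the 10 genes (vertical axis) in the 3 comparisons, with standard errors of the edgeR fit, 3 mice against 3; filled symbols have an adjusted p under 0.05, red higher and blue lower. *Sftpc* at -1.15 in IL-33 against CON is the largest change, and *Abca3*, *Sftpd* and *Etv5* lie nearest to 0 in IL-33+LM8 against IL-33.

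*Abca3*, the transporter that loads phospholipid into lamellar bodies, had an FPKM of 51.3, 41.3 and 44.8 in CON, 30.6, 31.1 and 32.5 in IL-33 and 32.7, 29.0 and 29.3 in IL-33+LM8 lungs. All 6 challenged lungs lay below all 3 CON lungs, and the challenged groups overlapped. The fit gave a log2 fold change of -0.55 (SE 0.09, edgeR adjusted p = 0.00151) in IL-33 against CON and -0.58 (SE 0.10, edgeR adjusted p = 0.00542) in IL-33+LM8 against CON. IL-33+LM8 against IL-33 gave -0.05 (SE 0.06, edgeR adjusted p = 0.614). The gene D330041H03Rik overlaps *Abca3* on the opposite strand and held 1.28% as many counts. Whether the counting used strand is not given in the sources used here.

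*Lpcat1*, the acyltransferase that remodels phosphatidylcholine into its dipalmitoyl form, changed in the same directions as *Abca3*. Its FPKM was 50.4, 48.5 and 54.8 in CON, 34.8, 29.9 and 35.1 in IL-33 and 31.6, 26.9 and 31.3 in IL-33+LM8 lungs. Again every challenged lung was below every CON lung. The log2 fold change was -0.62 (SE 0.08, edgeR adjusted p = 0.000401) in IL-33 against CON, -0.76 (SE 0.08, edgeR adjusted p = 0.000701) in IL-33+LM8 against CON and -0.15 (SE 0.09, edgeR adjusted p = 0.238) in IL-33+LM8 against IL-33. Over the 9 mice, the TMM-scaled log2 counts of *Abca3* and *Lpcat1*, each centred on its CON mean, differed by 0.137 on average.

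*Etv5*, an ETS-family transcription factor that maintains AT2 identity downstream of growth factor signalling, had an FPKM of 26.1, 25.1 and 25.5 in CON, 20.3, 20.4 and 21.5 in IL-33 and 22.6, 20.1 and 21.1 in IL-33+LM8 lungs. CON lungs were above all others with a narrow spread. The fitted log2 difference was -0.30 (SE 0.05, edgeR adjusted p = 0.00132) in IL-33 against CON and -0.25 (SE 0.06, edgeR adjusted p = 0.0187) in IL-33+LM8 against CON. The second of these calls was lost without CON replicate 1 (adjusted p = 0.0542), CON replicate 3 (0.0501), IL-33+LM8 replicate 2 (0.0505) or IL-33+LM8 replicate 3 (0.0766), and with epithelial scaling (0.0809). IL-33+LM8 against IL-33 gave 0.04 (SE 0.06, edgeR adjusted p = 0.702).

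Of the other 3 genes, *Slc34a2* alone was called in a comparison. *Slc34a2*, the phosphate cotransporter of AT2 cells, had an FPKM of 332, 292 and 300.4 in CON, 272, 260.2 and 290.4 in IL-33 and 324, 369.8 and 339.8 in IL-33+LM8 lungs. IL-33 lungs lay below the other groups, and CON and IL-33+LM8 lungs overlapped. The log2 fold change was 0.33 (SE 0.08, edgeR adjusted p = 0.0226) in IL-33+LM8 against IL-33, and neither -0.17 (SE 0.08, edgeR adjusted p = 0.103) in IL-33 against CON nor 0.18 (SE 0.10, edgeR adjusted p = 0.213) in IL-33+LM8 against CON passed. The call was lost without IL-33 replicate 1 (adjusted p = 0.0723), IL-33 replicate 2 (0.0968) or IL-33+LM8 replicate 3 (0.0508).

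*Lamp3*, a glycoprotein of the lamellar body membrane that mature dendritic cells also express, had an FPKM of 146, 165 and 162 in CON, 151, 138 and 145 in IL-33 and 152, 167 and 166 in IL-33+LM8 lungs. IL-33 lungs overlapped CON lungs and were below IL-33+LM8 lungs. On the log2 scale the difference was -0.13 (SE 0.06, edgeR adjusted p = 0.129) in IL-33 against CON, 0.16 (SE 0.07, edgeR adjusted p = 0.114) in IL-33+LM8 against IL-33 and 0.05 (SE 0.08, edgeR adjusted p = 0.653) in IL-33+LM8 against CON. It was called lower in IL-33 against CON without CON replicate 1 (-0.17, adjusted p = 0.0426) and higher in IL-33+LM8 against IL-33 without IL-33+LM8 replicate 1 (0.21, adjusted p = 0.0433) and by DESeq2 with all mice (0.17, adjusted p = 0.0437). The 7 mature dendritic cell markers had a summed FPKM of 47.4 to 52.0 in CON, 203 to 237 in IL-33 and 118 to 144 in IL-33+LM8 lungs, and 6 of the 7 were higher in IL-33 against CON, including *Ccl22* at 4.10 and *Ccr7* at 1.84 on the log2 scale. Their part in the *Lamp3* level was not tested.

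*Napsa*, the aspartic protease napsin A that processes the SP-B precursor, had the smallest fitted change of the 10 genes in IL-33 against CON. Its FPKM was 100.7, 97.9 and 96.2 in CON, 97.2, 97.6 and 97.3 in IL-33 and 94.9, 93.2 and 85.9 in IL-33+LM8 lungs. IL-33+LM8 lungs lay slightly below both other groups. The fit gave a log2 fold change of -0.02 (SE 0.05, edgeR adjusted p = 0.794) in IL-33 against CON, -0.09 (SE 0.06, edgeR adjusted p = 0.274) in IL-33+LM8 against IL-33 and -0.09 (SE 0.07, edgeR adjusted p = 0.329) in IL-33+LM8 against CON.

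The order of the 10 levels, per length on the FPKM scale, changed in the middle. In CON lungs *Sftpc* was followed by *Sftpb*, *Sftpa1*, *Slc34a2*, *Sftpd*, *Lamp3*, *Napsa*, *Lpcat1*, *Abca3* and *Etv5*. In both challenged groups *Sftpa1* stood above *Sftpb*, and *Sftpd* above *Slc34a2*. The only neighbours whose ranges overlapped in any group were *Lpcat1* and *Abca3*, which overlapped in all 3 groups.

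The non-member genes whose courses were most like that of *Sftpc* were *Ubxn10*, *Efna1* and *Bmpr2*. Their TMM-scaled log2 counts, centred on the CON mean, differed from those of *Sftpc* by 0.0588, 0.0617 and 0.0633 on average over the 9 mice. *Sftpc* was also the member with the largest change in IL-33 against CON, so its like genes are the only ones named.

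Other genes known from AT2 cells changed in both directions. Of 14 tested, 6 were higher and 5 lower in IL-33 against CON, with a median log2 fold change of -0.20 beside -0.01 over all genes. *Il33* itself, a nuclear alarmin of AT2 cells, rose from 31.6 ± 3.1 FPKM (SD, n = 3) in CON to 221 ± 17 in IL-33 lungs (log2 fold change 2.81, SE 0.09, edgeR adjusted p = 1.44e-06) and was at 137 ± 40 in IL-33+LM8 lungs. *Chil1*, a chitinase-like protein with the highest mean of this list over all 9 mice, rose from 202 ± 11 to 613 ± 23 FPKM (1.60, SE 0.07) and was at 700.2 ± 97.4 in IL-33+LM8 lungs. *Acoxl*, an acyl-CoA oxidase-like gene, fell from 13.1 ± 1.4 to 3.05 ± 0.28 FPKM (-2.11, SE 0.12) and was higher in IL-33+LM8 than in IL-33 lungs by 1.07 (SE 0.10). *S100g*, a calcium-binding protein, gave -1.18 (SE 0.14) and 0.74 (SE 0.19) in the same 2 comparisons, all called. Against IL-33, IL-33+LM8 lungs had 4 of the 14 higher and 4 lower, and against CON 3 higher and 4 lower.

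A few more of these genes are named after their values were seen. *Lgi3*, which lies 6603 bases from *Sftpc* in the table's coordinates, had an FPKM of 62.3 ± 0.5 in CON, 23.2 ± 1.1 in IL-33 and 38.3 ± 1.1 in IL-33+LM8 lungs, with log2 fold changes of -1.43 (SE 0.05) in IL-33 against CON and 0.72 (SE 0.05) in IL-33+LM8 against IL-33. *Ctsh*, cathepsin H, another protease of the SP-B and SP-C precursors, rose by 0.52 (SE 0.05) in IL-33 against CON and was lower by -0.52 (SE 0.07) in IL-33+LM8 against IL-33. Leukocyte markers were higher in 6 of 6 and lower in 5 of 6 in the same 2 comparisons, and their part in the *Ctsh* level was not tested. *Cxcl15*, a lung epithelial chemokine, rose by 0.76 (SE 0.12) in IL-33 against CON and was 0.67 (SE 0.17) above CON with LM8.

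Lipid synthesis genes fell more often than they rose in IL-33 lungs. Of 19 tested, 10 were lower and 2 higher in IL-33 against CON, with a median of -0.18, and 9 were lower and 1 higher in IL-33+LM8 against CON, with a median of -0.14. Of all genes, 27.2% were lower and 27.4% higher in the first comparison, and 13.4% and 16.3% in the second. *Scd1*, the stearoyl-CoA desaturase and the most abundant of the list, fell from 351 ± 11 to 161 ± 2 FPKM (-1.13, SE 0.06) and was at 184 ± 4 in IL-33+LM8 lungs, 0.19 (SE 0.05, edgeR adjusted p = 0.0360) above IL-33. *Prdx6*, a peroxiredoxin with phospholipase activity on surfactant lipid, fell from 224 ± 18 to 86.5 ± 0.2 FPKM (-1.37, SE 0.07) and was at 173 ± 10 with LM8, 1.00 (SE 0.06) above IL-33. *Fabp5*, a fatty acid binding protein that macrophages also express, rose by 1.31 (SE 0.11) and was lower by -1.16 (SE 0.11) with LM8. Between IL-33+LM8 and IL-33 lungs, 3 of the 19 were higher and 2 lower, near the shares of all genes, 12.6% and 13.9%.

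Genes of lamellar body assembly, processing and secretion showed no common direction. In IL-33 against CON 6 of 15 tested were higher and 3 lower, with a median of 0.09. *P2ry2*, the purinergic receptor that triggers secretion, rose by 2.01 (SE 0.09), from 2.81 ± 0.14 to 11.4 ± 1.0 FPKM, and was lower by -0.64 (SE 0.13) in IL-33+LM8 against IL-33. *Atp8a1*, a phospholipid flippase, fell by 0.94 (SE 0.05) in IL-33 against CON. *Anxa2*, an annexin of membrane fusion and the most abundant of the list, rose by 0.19 (SE 0.06, edgeR adjusted p = 0.0249). With LM8, 3 of 15 were higher and 2 lower than in IL-33 lungs, and 4 higher and 1 lower than in CON.

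Transcription factors and growth factor receptors of AT2 cells were lower in 4 and higher in 0 of 11 tested in IL-33 against CON, with a median of -0.37. Of all genes, 27.2% were lower and 27.4% higher. The median is the value of *Foxa2*, which did not pass. Without the mouse with most counts of each group, *Foxa2* gave 0.03 and *Foxa1* -0.01. In that fit the 4 genes called with all mice, *Tfcp2l1*, *Fgfr2*, *Grhl2* and *Erbb3*, gave -1.07, -0.53, -0.51 and -0.45. *Klf5*, which did not pass with all mice, was also called lower in it (-0.48, edgeR adjusted p = 0.0465, 2 mice a group). With all mice, no gene of the list was higher at an unadjusted p under 0.05 by edgeR (0 of 11) or by DESeq2 (0 of 11). *Tfcp2l1*, a CP2-family factor, fell by 1.11 (SE 0.08), and *Fgfr2*, the fibroblast growth factor receptor of the epithelium, and *Grhl2*, a grainyhead factor, fell by 0.56 (SE 0.08) and by 0.56 (SE 0.09). In IL-33+LM8 against IL-33 2 were higher and 0 lower, *Tfcp2l1* by 0.46 (SE 0.08) and *Fgfr2* by 0.34 (SE 0.08), and against CON 3 of 11 were lower and 0 higher. The counts of 0 in these 2 comparisons were also 0 at an unadjusted p under 0.05, by edgeR and by DESeq2. The list's remaining gene, *Etv4*, an ETS factor related to *Etv5* and named after its values were seen, was under the FPKM minimum, with 0.136 ± 0.023 FPKM in CON, 0.918 ± 0.069 in IL-33 and 0.205 ± 0.034 in IL-33+LM8 lungs. In the fit without that minimum it was higher in IL-33 against CON by 2.74 (SE 0.27, edgeR adjusted p = 0.000274) and lower in IL-33+LM8 against IL-33 by -2.11 (SE 0.25, edgeR adjusted p = 0.00157).

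*Nkx2-1*, the lung lineage factor that drives surfactant genes, did not pass in any comparison, and its level moved with single lungs. Its FPKM was 23.3, 23.5 and 59.7 in CON, 43.1, 20.2 and 24.3 in IL-33 and 19.4, 20.3 and 45.4 in IL-33+LM8 lungs. The high lungs, CON replicate 3, IL-33 replicate 1 and IL-33+LM8 replicate 3, had the most counts of their groups, between 66029783 and 90607218 against 53877663 to 62238131 in the other 6. *Cebpa*, a C/EBP factor named after its values were seen, was likewise at 35.6 to 45.3 FPKM in those 3 lungs and 16.0 to 24.0 in the other 6. Of all 16831 genes over the FPKM minimum, 2.38% were higher in all 3 of these lungs than in all 6 others and 1.43% lower, and none of the 10 members was among them. Without these lungs *Nkx2-1* gave -0.07 in IL-33 against CON (edgeR adjusted p = 0.618, 2 mice a group).

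**Figure D3:**
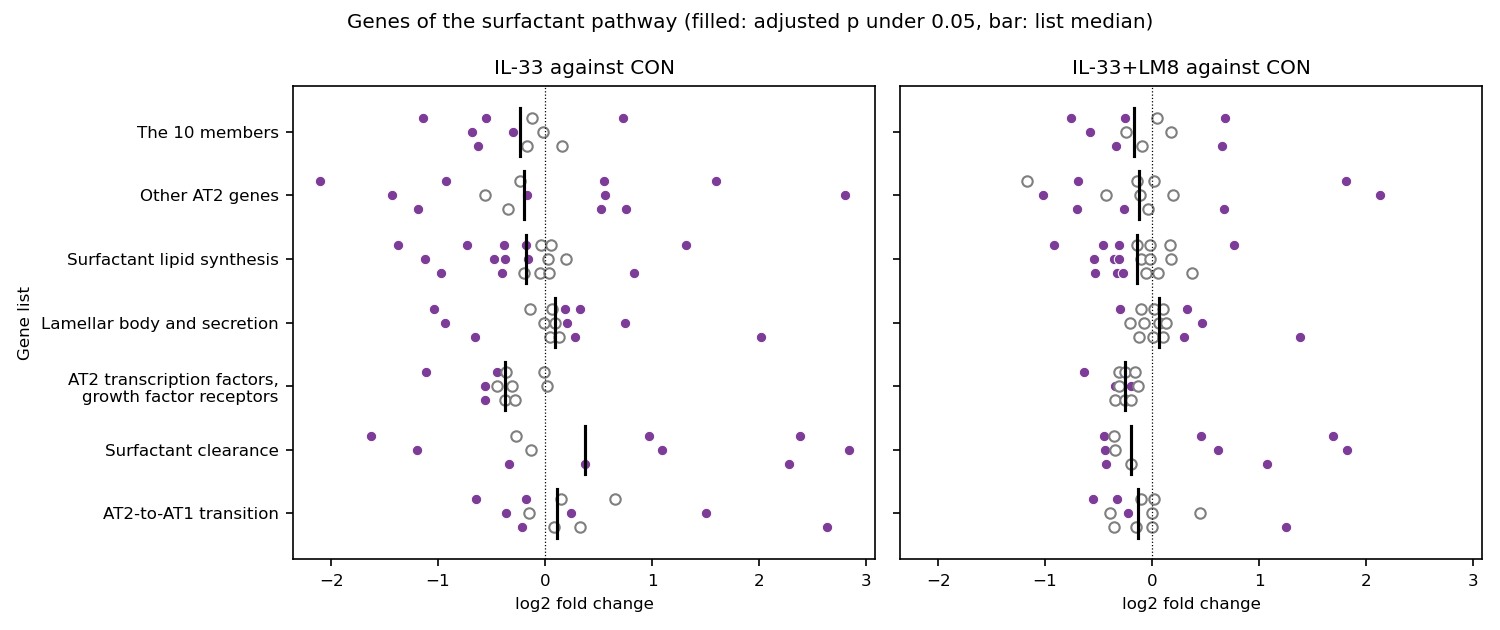
Log2 fold changes (horizontal axis) of the genes in 7 lists (vertical axis) in both comparisons with CON; each symbol is a gene, filled where the edgeR adjusted p is under 0.05, and the black bar is the list's median. Other AT2 genes run from -2.11 to 2.81 in IL-33 against CON, and the medians of the members and of the lipid synthesis genes are -0.24 and -0.18.

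Surfactant clearance and pool size genes, many of which act in alveolar macrophages, rose in 6 and fell in 3 of 11 tested in IL-33 against CON, with a median of 0.37. The GM-CSF receptor genes *Csf2rb2*, *Csf2rb* and *Csf2ra* rose by 2.84 (SE 0.15), 2.38 (SE 0.07) and 2.29 (SE 0.17). *Adgrf5*, an adhesion receptor that limits the surfactant pool and the most abundant of the list, fell from 186 ± 17 to 81.2 ± 1.8 FPKM (-1.20, SE 0.08) and was at 137 ± 15 with LM8. *Marco*, a macrophage scavenger receptor, fell from 7.41 ± 1.37 to 2.40 ± 0.48 FPKM and was higher by 1.26 (SE 0.18) with LM8. IL-33+LM8 lungs had 2 of the 11 higher and 7 lower than IL-33 lungs. Leukocyte markers moved in the same lungs, with a summed FPKM of 105 to 119 in CON, 419 to 449 in IL-33 and 272 to 281 in IL-33+LM8 lungs and 6 of 6 higher in IL-33 against CON, the most abundant, *Coro1a* and *Laptm5*, by 2.16 and 1.80. Their part in these values was not tested.

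Of the other collectins, *Mbl1* fell from 1.58 ± 0.11 to 1.01 ± 0.15 FPKM in IL-33 against CON (-0.63, SE 0.21, edgeR adjusted p = 0.0360), 1 of 3 tested, and *Colec12*, the most abundant of them, gave -0.04 (SE 0.05, edgeR adjusted p = 0.488). By edgeR 0 of the 3 passed in each of the other comparisons, where an unadjusted p was under 0.05 for 1 of them, *Colec12*, which DESeq2 called lower in both.

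Of 12 genes known from the passage of AT2 cells towards AT1 cells, 3 were higher and 4 lower in IL-33 against CON. These counts are near the shares of all genes, 27.4% higher and 27.2% lower. *Lgals3*, galectin-3, rose from 36.9 ± 2.4 to 229 ± 7 FPKM (2.63, SE 0.06) and was at 86.7 ± 11.4 with LM8. It is also abundant in macrophages. *Areg*, amphiregulin, rose from 1.67 ± 0.26 to 4.73 ± 1.58 FPKM, while *Cdkn1a*, the cell cycle inhibitor p21, fell by 0.64 (SE 0.14). *Krt8*, the keratin by which the transitional state is usually known, was at 88.5 ± 5.4 FPKM in CON and 93.7 ± 3.6 in IL-33 lungs and did not pass (0.08, SE 0.06, edgeR adjusted p = 0.296), and it was lower by -0.25 (SE 0.06, edgeR adjusted p = 0.0277) in IL-33+LM8 against IL-33.

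Markers of the epithelium as a whole had similar sums in the 3 groups. The summed FPKM of 8 general epithelial genes was 176 to 185 in CON, 180 to 193 in IL-33 and 180 to 187 in IL-33+LM8 lungs, with 2 higher and 1 lower in IL-33 against CON. The most abundant, *Cdh1* and *Krt18*, gave -0.13 (SE 0.06, edgeR adjusted p = 0.109) and 0.23 (SE 0.06, edgeR adjusted p = 0.0130). The 10 members, by contrast, summed to 13694 to 14811 FPKM in CON, 7700 to 7945 in IL-33 and 12214 to 13463 in IL-33+LM8 lungs, sums that *Sftpc* dominates.

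Other lung cell types differed in the same lungs. AT1 markers fell in 7 of 8, from a summed FPKM of 1646 to 1776 in CON to 900 to 942 in IL-33 lungs, with 1273 to 1327 with LM8, and their most abundant genes *Ager* and *Gprc5a* gave -0.93 and -0.58. The eighth, *Pdpn*, was higher in IL-33 against CON by 0.29 (SE 0.05, edgeR adjusted p = 0.00212) and in IL-33+LM8 against CON by 0.33 (edgeR adjusted p = 0.0167). Club cell markers fell in 6 of 6, with *Scgb1a1* at -1.29 and *Cyp2f2* at -2.57, from 21739 to 23808 in CON to 8495 to 9536 in IL-33 and 17142 to 18527 with LM8. Endothelial markers fell in 5 of 6, with *Calcrl* at -0.75 and *Cldn5*, which did not pass, at -0.23, from 817 to 892 in CON to 490 to 532 in IL-33 and 750 to 773 with LM8. Goblet cell markers rose in 6 of 6, with *Clca1* at 6.35 and *Muc5b* at 2.00, from 7.68 to 18.6 in CON to 446 to 484 in IL-33 and 527 to 554 with LM8. None of these markers was at or under 3 counts in all mice of a group. Their part in the levels of the 10 genes was not tested. With counts scaled to the general epithelial panel, *Sftpc*, *Sftpb*, *Sftpd*, *Abca3*, *Lpcat1* and *Etv5* were called in the same direction in IL-33 against CON. That scaling moved the median log2 fold change of all genes in this comparison only from -0.005 to 0.035. It could therefore hardly alter these calls, and it is not a test of the part of other cell types.

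**Figure D4:**
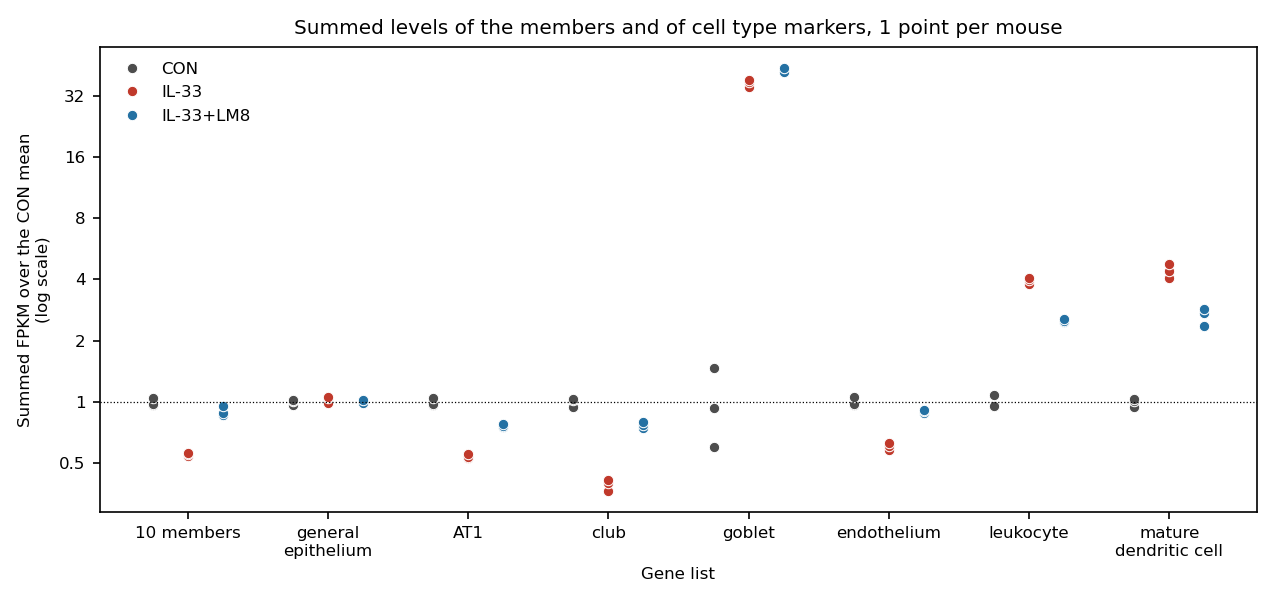
Summed FPKM of the 10 members and of 7 marker lists divided by the CON mean of each (vertical axis, log scale); each point is a mouse, and the horizontal axis gives the lists. The general epithelial sum stays near 1 in all 9 mice, while the sums of the members, AT1, club and endothelial genes are lowest in IL-33 lungs and the goblet, leukocyte and dendritic cell sums are above CON in both challenged groups.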

How the data were processed

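Lung RNA of 9 mice was sequenced in paired ends, and the authors deposited 1 table that holds, for every mouse, raw gene counts and the FPKM derived from them. The submitters' processing notes name HISAT2 2.0, StringTie 1.3.0, Bowtie 0.12.2 and the build mm10. The table's coordinates are not those of GRCm38, since only 578 of 32643 genes found in GENCODE M21 have identical positions, so distances are given in the table's own coordinates and promoters in GRCm38.p6. Whether counting used strand is not given in the sources used here.

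Groups came from the sample labels. Total counts were between 53877663 and 90607218 per mouse, and counting error is therefore small beside the spread between mice. Within groups, the spread between libraries was 21.9 or more times what counting alone gives, and each was kept as a replicate. Deposited counts were tested with edgeR 4.0.16 (quasi-likelihood, TMM, R 4.3.3) over all genes whose mean FPKM reached 0.5, adjusted by Benjamini-Hochberg. The SE is the size of the log2 fold change divided by the square root of F. A two-sided exact permutation test on log2(FPKM + 1) was run for each member. Same-numbered CON and IL-33+LM8 mice deviated together from their group means (r = 0.346, 0.372 and 0.70 across genes), but the labels give no pairing. The 0.70 joins the replicates 3, which had the most counts of their groups. IL-33 replicate 1, also the deepest of its group, correlated with them at 0.712 and 0.727. Different-numbered replicates 1 and 2 of CON and IL-33+LM8 also correlated, at 0.261 and 0.247. The replicate block is therefore an alternative fit only, and no main test was paired. In each of the other comparisons 2 of the 3 same-numbered correlations were below 0.

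The 10 members and the gene lists were chosen with earlier results of these data known, so no list is independent evidence. The text names all members, the genes of each list with the largest called changes (3 in IL-33 against CON, 2 in IL-33+LM8 against IL-33) and the most abundant gene, the 2 most abundant markers of each cell type, and for *Sftpc* the 3 most alike genes whose mean FPKM reached 5. A gene that this rule names is not reported here. On simulated counts for IL-33 against CON, with 200 of 16831 genes changed, edgeR recovered 121 of 133 at 2-fold or more and 37 of 67 at 1.5-fold, with 7 false calls. Of all 200, edgeR recovered 158, DESeq2 174 with 60 false calls, and limma 140 with 6 false calls. The simulation covered 1 comparison, changed far fewer genes than were called in these data, and took its spread from edgeR's own estimates. It therefore does not rank the calls of the 2 tools in the other comparisons. Alternatives were other filters and scalings, DESeq2 1.42.0, limma 3.58.1 on log2(FPKM + 1) and log2(FPKM + 0.1), all 9 mice in 1 fit, a replicate block, a minimum fold change, scaling to epithelial genes and each mouse left out. A fit without the mouse with most counts of each group was added after seeing the data.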

Additional observations from a re-analysis of the deposited data

How the results depend on the processing

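In IL-33 against CON, *Sftpc*, *Sftpb*, *Lpcat1*, *Abca3*, *Etv5* and *Sftpd* were called in the same direction under all 17 alternatives of tool, filter, scaling and mice, as were *Sftpc* in IL-33+LM8 against IL-33 and *Lpcat1*, *Abca3* and *Sftpd* in IL-33+LM8 against CON. *Sftpb* and *Slc34a2* in IL-33+LM8 against IL-33 were called in 12 of 17, and *Sftpb* and *Etv5* in IL-33+LM8 against CON in 10 and 11. Members higher in IL-33 against CON numbered 1, and 2 with DESeq2; leaving out single mice gave 1 to 2. Members higher in IL-33+LM8 against IL-33 numbered 4, and 1 without the deepest mouse of each group; leaving out single mice gave 2 to 5. Members higher in IL-33+LM8 against CON numbered 2, and 1 without the deepest mice. Members lower in IL-33+LM8 against CON numbered 4, with 5 by DESeq2, with all 9 mice in 1 fit, with a minimum mean of 5 FPKM and with the replicate block, each adding *Sftpc*, 2 under epithelial scaling, 2 without the deepest mice and 2 to 4 when single mice were left out. A minimum of 1 on the absolute log2 scale left 1 member lower in IL-33 against CON and 0 in every other count. The cause of these changes was not tested, beyond the fewer mice or the stricter rule.

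With the replicate block, a pairing that the labels do not give, members higher in IL-33+LM8 against IL-33 numbered 2. *Sftpb* (0.33, adjusted p = 0.0882) and *Slc34a2* (0.33, adjusted p = 0.0892) were no longer called there, and the block changed no member's call in IL-33 against CON. In IL-33+LM8 against CON the block added *Sftpc* (-0.25) and changed no other member's call. Same-numbered mice did not always correlate best, with r from -0.49 to 0.70 for equal and -0.56 to 0.73 for different numbers.

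Signs turned only for members near 0. *Napsa* in IL-33 against CON was 0.025 with epithelial scaling and ran from -0.036 to 0.0099 when single mice were left out, positive without CON replicate 1 or IL-33 replicate 1, and *Etv5* in IL-33+LM8 against IL-33 ran from -0.0042 to 0.074, negative without IL-33+LM8 replicate 1. On the simulated counts edgeR recovered 37 of 67 changes of 1.5-fold. In these data smaller changes were also called, such as *Etv5* in IL-33 against CON at -0.30, so 1.5-fold is not a limit here.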

Other observations

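Dividing cells and granulocytes also differed between the groups. All 6 proliferation genes tested were higher in IL-33 against CON, with a median log2 fold change of 3.07, and all 6 were lower in IL-33+LM8 against IL-33, with a median of -1.16. *Mki67*, the proliferation antigen and the most abundant of them, was at 3.53 FPKM in CON, 30.7 in IL-33 and 11.9 in IL-33+LM8 lungs (means of 3 mice), and *Birc5* and *Ccnb1* rose by 3.18 and 3.09 in IL-33 against CON. *Cdk1* was lower by -1.40 in IL-33+LM8 against IL-33. Which cells divided cannot be read from whole-lung RNA.

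Neutrophil markers were highest with LM8, with a summed FPKM of 21.1 to 28.5 in CON, 169 to 189 in IL-33 and 844 to 979 in IL-33+LM8 lungs, and all 6 were higher in each of the 3 comparisons. *S100a9* and *Retnlg*, the most abundant, were higher in IL-33+LM8 than in IL-33 lungs by 3.41 and 0.76. Eosinophil markers went the other way, with 80.7 to 89.0 in CON, 569 to 625 in IL-33 and 135 to 170 in IL-33+LM8 lungs, and *Ear2* and *Prg2* were lower with LM8 by -1.93 and -2.31. *Ear2* dominates these sums, with means of 83.2, 553 and 145 FPKM in the same order. Those of *Prg2* were 0.176, 19.5 and 3.94. *Epx*, a defining eosinophil gene, was at or under 3 counts in every CON lung. Alveolar macrophage markers had a summed FPKM of 307 to 345, 4186 to 4776 and 1889 to 2227 in the same order, sums dominated by *Chil3*, which other macrophages also express. The markers went both ways, with 4 of 6 higher and 2 lower in IL-33 against CON, 1 higher and 5 lower in IL-33+LM8 against IL-33, and 2 higher and 3 lower in IL-33+LM8 against CON, where their median was -0.31. *Car4*, also an endothelial gene, fell by 0.57 in IL-33 against CON.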
